A study of Mus musculus with 12 samples.

Results

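The genes described here are 36 genes of glycolysis and of the response to low oxygen, followed across 3 treatments of mouse kidney tubuloids. They were chosen by gene symbol from a list of glycolytic enzymes, glucose and lactate carriers, oxygen sensors and targets of the hypoxia-inducible factors (HIFs). They account for 37 of the 20819 rows of the deposited table, because 2 gene models carry the symbol Aldoa. All 37 rows had a normalised read count of at least 10 in at least 4 libraries and were tested, as were 14558 rows of the table.

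Tubuloids are 3-dimensional cultures of tubular epithelial cells, here grown in Matrigel from the renal cortex of 4 mice. All 3 groups were wildtype, and RNA was taken after 12 h. The vehicle group received neither agent, the second group received myoglobin, the oxygen-binding haem protein of muscle that injures tubules when muscle breaks down, and the third received myoglobin with 100 nM dexamethasone, a synthetic glucocorticoid. Each group had 4 libraries, 12 in all, numbered 1 to 4. The dose of myoglobin was not given in the sources used here, and dexamethasone without myoglobin was not analysed here. The labels do not say whether a replicate number stands for a mouse, so p-values measure the spread between these libraries, which may be technical. In bulk RNA, fewer cells of a type and less RNA per cell cannot be told apart.

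Glycolysis splits glucose into pyruvate, and lactate dehydrogenase turns pyruvate into lactate. When oxygen is present, prolyl hydroxylases (Egln1, Egln2 and Egln3) mark the HIF alpha subunits, encoded by Hif1a and Epas1, and the Vhl protein then directs their destruction. When oxygen is low the subunits persist, pair with HIF1-beta and bind short DNA elements at target genes, many of which encode glucose carriers and glycolytic enzymes. HIF control acts mainly on the protein, so the RNA of Hif1a is not a measure of HIF activity. Tubules of the renal cortex differ in glucose use: the proximal tubule mainly makes glucose, and the later segments break it down.

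Each deposited value is the number of reads of a gene, scaled by the size factor of its library and rounded, called the normalised read count here. Whether duplicate reads were removed before counting was not given in the sources used here; removal would understate the levels of densely covered transcripts such as Hk2 and Ldhb. By these factors 11 libraries held 4.86 to 5.93 M reads in genes, and 3.25 M were estimated for replicate 4 of myoglobin with dexamethasone, whose size factor was 0.568 against 0.904 to 1.11 in the others. That library stood apart from the rest of its group in a way that followed the density of reads along a transcript. Its median deviation from replicates 1 to 3 over all tested genes was -0.21 on the log2 scale for transcripts below 30 normalised reads per kb of exon, and 0.40 above 300 per kb. The members were low and high at the same ends. Their median deviation was -0.52 for the 6 below 30 per kb, 0.34 for the 5 at 200 to 300 and 0.50 for the 3 above 300. Between these ends the members did not climb. Their median was 0.05 for the 10 at 30 to 100 per kb and 0.02 for the 13 at 100 to 200, against -0.03 and 0.13 over all tested genes. It was the highest library of its group in 18 of the 37 rows, against 38.3% of all tested genes. Most called differences of the group with both agents, and its counts of genes called, are therefore given with and without it. Counts by role, counts of groups that do not overlap and ratios are given with it only. All 6 epithelial markers were abundant, with a summed value of 6877 to 7696 in 11 libraries and 10274 in replicate 4 of myoglobin with dexamethasone. None of the 6 passed by limma in any comparison, with 4 higher at an unadjusted p below 0.05 when dexamethasone was added and 1 higher with both agents against vehicle. Of the proximal tubule markers, Lrp2 was 216 to 264 in vehicle, 351 to 456 with myoglobin and 288 to 374 with both agents, and Cubn and Slc34a1 were at 0 to 5. The immune markers summed to 566 to 687, 477 to 579 and 524 to 628 in the same order, most of it Ptprc. The 6 endothelial markers summed to 57 to 63, 30 to 62 and 34 to 49, and the 6 stromal markers to 61 to 100, 60 to 97 and 45 to 70. The only erythroid marker in the table, Alas2, was at 0 to 3. With myoglobin Lrp2 rose by 0.73 (limma adjusted p = 9.2e-05), Ptprc fell by 0.38 (0.000408) and the stromal Pdgfra fell by 0.76 (0.0259). No other tested marker passed in this comparison. The other tested proximal tubule markers, Aqp1 (-0.97) and Hnf4a (-0.22), were lower. In the stroma Col1a2 was also lower (-0.60), and Dcn (0.68) and Pdgfrb (0.16) were higher. Among the immune markers Cd68 was also lower (-0.26), and Adgre1 (0.72) and Lyz2 (0.29) were higher. Ptprc rose by 0.31 when dexamethasone was added (limma adjusted p = 0.00767). The other tested immune markers, Cd68 (-0.26), Lyz2 (-0.44) and Adgre1 (-1.08), were lower in that comparison and did not pass. With both agents against vehicle Lrp2 rose by 0.50 (limma adjusted p = 0.00166). Cd68 (-0.52, limma adjusted p = 0.00737), Pdgfra (-0.99, 0.00365) and the endothelial Flt1 (-0.66, 0.0356) fell. The part of these markers in the results below was not tested.

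**Figure D1:**
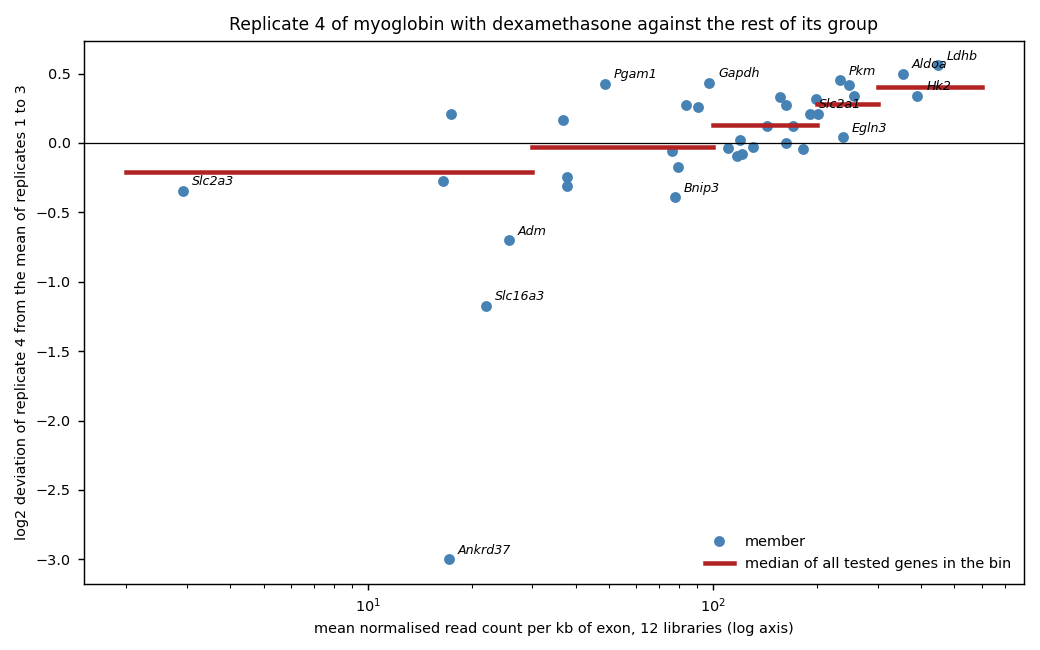
Log2 deviation of replicate 4 from the mean of replicates 1 to 3 of myoglobin with dexamethasone (y axis) against the mean normalised read count per kb of exon over 12 libraries (log x axis). Blue points are members and red lines the median of all tested genes in 5 bins, the outer 2 drawn to the edge of the data; the red lines climb from -0.21 to 0.40, with Ldhb and Aldoa among the highest members and Ankrd37 the lowest.

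Promoter windows are shown first for 5 members on which the comparisons turn: Egln3, P4ha2, Hk2 and Slc2a1, which were higher with myoglobin, and Aldoc, which was higher when dexamethasone was added. Each window runs from 250 bases before to 50 bases after the RefSeq transcript start on build GRCm38.p6, printed 5′ to 3′ on the strand of the gene. Capitals mark the HIF core element, ACGTG or GCGTG, or its reverse complement, CACGT or CACGC. The windows are chr12:54203825-54204124 on the minus strand for Egln3, chr11:54100674-54100973 on the plus strand for P4ha2, chr6:82774405-82774704 on the minus strand for Hk2, chr4:119108495-119108794 on the plus strand for Slc2a1 and chr11:78322823-78323122 on the plus strand for Aldoc.
Egln3: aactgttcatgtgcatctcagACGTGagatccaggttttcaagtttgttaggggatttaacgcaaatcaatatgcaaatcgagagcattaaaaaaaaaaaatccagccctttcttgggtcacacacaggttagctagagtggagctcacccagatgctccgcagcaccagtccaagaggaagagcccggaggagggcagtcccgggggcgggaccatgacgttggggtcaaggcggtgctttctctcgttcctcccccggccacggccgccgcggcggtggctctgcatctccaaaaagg
P4ha2: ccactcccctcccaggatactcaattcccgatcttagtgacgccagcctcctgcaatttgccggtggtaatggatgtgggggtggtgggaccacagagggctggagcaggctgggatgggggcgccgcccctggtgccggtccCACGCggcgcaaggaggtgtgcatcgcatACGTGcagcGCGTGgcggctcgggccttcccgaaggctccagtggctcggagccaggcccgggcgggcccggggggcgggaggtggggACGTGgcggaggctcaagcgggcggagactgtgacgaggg
Hk2: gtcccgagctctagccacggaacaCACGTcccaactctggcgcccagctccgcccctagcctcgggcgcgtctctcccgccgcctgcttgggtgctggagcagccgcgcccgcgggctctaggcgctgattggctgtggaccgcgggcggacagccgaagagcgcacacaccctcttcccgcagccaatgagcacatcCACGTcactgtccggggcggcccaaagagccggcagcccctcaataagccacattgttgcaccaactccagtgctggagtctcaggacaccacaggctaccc
Slc2a1: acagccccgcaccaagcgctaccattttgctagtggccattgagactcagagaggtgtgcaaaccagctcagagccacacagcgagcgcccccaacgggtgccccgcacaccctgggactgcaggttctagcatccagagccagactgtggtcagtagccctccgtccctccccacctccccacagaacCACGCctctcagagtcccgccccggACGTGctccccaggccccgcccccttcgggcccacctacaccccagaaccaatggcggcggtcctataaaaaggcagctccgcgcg
Aldoc: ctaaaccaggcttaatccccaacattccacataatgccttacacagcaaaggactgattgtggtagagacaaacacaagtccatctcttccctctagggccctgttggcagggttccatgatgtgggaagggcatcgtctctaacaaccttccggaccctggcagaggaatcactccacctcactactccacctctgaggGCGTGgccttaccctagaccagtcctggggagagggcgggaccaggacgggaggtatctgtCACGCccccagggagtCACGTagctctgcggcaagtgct

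RefSeq windows matched 32 of the 36 members, and Epas1, Ndrg1, Slc2a3 and Bnip3l had no entry in the table used. A HIF core was present in the first window of 25 of the 32 (78.1%), against 43.8% of the first windows of 27025 genes. At least 2 cores were present in 20 members, and in 20.8% of all first windows. Of the 5 windows printed, that of Egln3 held 1 core, those of Hk2 and Slc2a1 2 each, that of Aldoc 3 and that of P4ha2 4. A core was in the windows of 6 of the 7 members that rose with myoglobin, all but Vhl. The windows with most cores were those of Ldha, with 7, and Egln2, with 6, neither of which passed with myoglobin. A match is a string of letters and not a measured site. The full palindromic glucocorticoid response element, searched on both strands, was in 0 member windows and in 3 of 32851 windows of the whole table.

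Against vehicle, myoglobin raised 7 member rows and lowered 1. The 7 were P4ha2, Egln3, Hk2, Pfkp, Hif1a, Slc2a1 and Vhl, by 1.12- to 1.55-fold, and the gene that fell was Ndrg1, to 0.73 of the vehicle level. The risers make up 18.9% of the member rows, against 8.71% of all tested genes, and the 1 faller stands against 9.62% of all tested genes. When replicate 4 of both agents was left out of the fit, 8 rows rose and 1 fell, against 13.3% and 12.8% of all tested genes. The lowest myoglobin library lay above the highest vehicle library in 9 rows, against 12.9% of all genes, and the reverse held in 1, against 12.1%. Over the 37 rows the median log2 difference was 0.076 and 27 lay above 0; over all tested genes the median was 0.0026.

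By role, 3 of 6 oxygen-sensing genes rose with myoglobin, 1 of 10 HIF targets outside glycolysis rose and 1 fell, and 3 of 13 rows of glucose entry and upper glycolysis rose. None of the 8 genes of lower glycolysis and lactate passed in either direction by limma, and 0 of the 8 had an unadjusted p below 0.05.

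**Figure D2:**
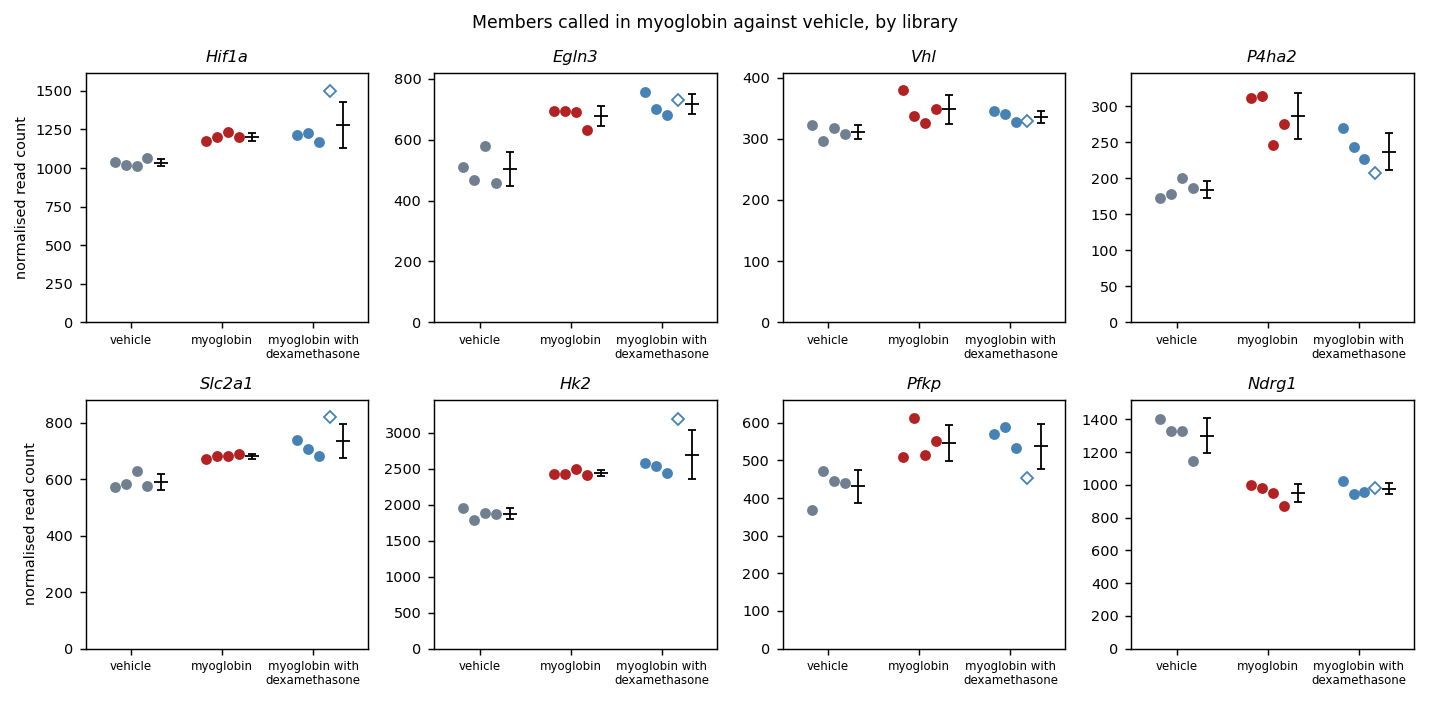
Normalised read count (y axis, from 0) in each library of the 3 treatment groups for the 8 members called in myoglobin against vehicle; bars are mean ± SD of 4 libraries and the open diamond is replicate 4 of myoglobin with dexamethasone. The vehicle and myoglobin points do not overlap in any of the 8 panels, and Ndrg1 is the panel in which vehicle is the higher.

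Among the oxygen sensors, the prolyl hydroxylase Egln3, itself a well-known HIF target, was 511, 468, 580 and 457 in vehicle replicates 1 to 4, 696, 695, 692 and 631 with myoglobin, and 757, 700, 680 and 732 with myoglobin and dexamethasone. Every library of either treated group lay above every vehicle library, and the treated groups overlapped each other. The log2 difference of myoglobin from vehicle was 0.43 ± 0.066 (SE; limma adjusted p = 0.000198), that of both agents from vehicle 0.51 ± 0.066 (adjusted p = 3.42e-05; 0.50 and 7.51e-05 without replicate 4), and that of dexamethasone added to myoglobin 0.08 (95% interval -0.06 to 0.22). The other prolyl hydroxylases did not pass: Egln1, usually the main oxygen sensor of the family, was 509 ± 30.2 (SD, n = 4) in vehicle and 508 ± 18.9 with myoglobin. Egln2 was 410 ± 7.63 and 439 ± 12.0, with groups that did not overlap (limma adjusted p = 0.322, or 0.0408 when replicate 4 of the group with both agents was left out of the fit). Per kb of exon, the vehicle level of Egln3 was 189 normalised reads, that of Egln2 146 and that of Egln1 142.

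Hif1a was 1041, 1018, 1013 and 1065 in vehicle, 1173, 1204, 1231 and 1201 with myoglobin, and 1216, 1230, 1168 and 1499 with both agents. All treated libraries lay above all vehicle libraries, and the highest value was that of replicate 4 with both agents. Hif1a rose by 0.22 ± 0.061 with myoglobin (limma adjusted p = 0.0202) and by 0.30 ± 0.061 with both agents (adjusted p = 0.00189; 0.22 and 6.34e-05 without that library). The first of these calls held in 20 of 23 alternative settings, with a limma adjusted p of 3.38e-05 without replicate 4 of both agents. It was lost when vehicle replicate 2 (adjusted p = 0.0583), vehicle replicate 3 (0.0601) or myoglobin replicate 3 (0.0601) was left out.

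Epas1 encodes the HIF2-alpha subunit. It was 132, 163, 171 and 249 in vehicle, 149, 225, 213 and 304 with myoglobin, and 193, 230, 205 and 234 with both agents. The groups overlapped, and replicate 1 was the lowest and replicate 4 the highest library of each group. The difference of myoglobin from vehicle was 0.31 (95% interval -0.09 to 0.71; limma adjusted p = 0.298). Per kb of exon, the vehicle level of Hif1a was 175 and that of Epas1 32.0.

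Vhl, the recognition subunit of the ubiquitin ligase that removes HIF alpha, was 322, 296, 318 and 308 in vehicle, 380, 338, 326 and 348 with myoglobin, and 346, 341, 327 and 329 with both agents. The lowest treated library, at 326, lay 4 above the highest vehicle library, at 322, so the separation was narrow. Vhl rose by 0.16 ± 0.052 with myoglobin (limma adjusted p = 0.0438) and did not pass with both agents (0.11, 95% interval 0.00 to 0.22, adjusted p = 0.125). The call with myoglobin held in 9 of 23 alternative settings, and leaving out myoglobin replicate 1 gave an adjusted p of 0.139.

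Of the HIF targets outside glycolysis, P4ha2 showed the largest rise with myoglobin among the 37 rows. It encodes a catalytic subunit of collagen prolyl 4-hydroxylase, which hydroxylates proline in collagen. Its values were 173, 178, 200 and 186 in vehicle, 312, 314, 247 and 275 with myoglobin, and 270, 244, 227 and 208 with both agents. The 3 groups were ordered with myoglobin highest and vehicle lowest, and the groups with and without dexamethasone overlapped. P4ha2 rose by 0.63 ± 0.089 with myoglobin (limma adjusted p = 0.000109) and by 0.36 ± 0.089 with both agents against vehicle (adjusted p = 0.00746; 0.42 and 0.00207 without replicate 4). The difference of both agents from myoglobin alone was -0.27 ± 0.089 (95% interval -0.46 to -0.08), which did not pass (adjusted p = 0.0812; -0.21 and 0.153 without replicate 4). It passed without myoglobin replicate 3 (0.0402) or without replicate 1 of both agents (0.0428). P4ha1, the related subunit, was 294 ± 20.8 in vehicle, 330 ± 36.2 with myoglobin and 316 ± 45.5 with both agents and did not pass.

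Ndrg1, a stress gene and a standard marker of HIF activity, moved the other way. It was 1401, 1327, 1327 and 1148 in vehicle, 997, 978, 948 and 871 with myoglobin, and 1026, 946, 959 and 978 with both agents. Every treated library lay below every vehicle library. Ndrg1 fell by 0.45 ± 0.058 with myoglobin (limma adjusted p = 4.65e-05) and by 0.41 ± 0.058 with both agents (adjusted p = 9.67e-05; also 0.41 without replicate 4), and both calls held in all 23 alternative settings. The difference of both agents from myoglobin was 0.04 (95% interval -0.08 to 0.17).

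Vegfa, the endothelial growth factor and a classic HIF target, was 811, 789, 845 and 822 in vehicle, 813, 795, 764 and 745 with myoglobin, and 875, 740, 668 and 735 with both agents. The groups overlapped. The difference of myoglobin from vehicle was -0.07 (95% interval -0.20 to 0.07), and that of both agents -0.12 (-0.26 to 0.01; limma adjusted p = 0.166, and 0.00893 without replicate 1 of both agents, the highest of the 12 libraries).

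Pdk1, the kinase that holds pyruvate back from the mitochondrion, was 668, 626, 674 and 602 in vehicle, 653, 603, 535 and 555 with myoglobin, and 692, 623, 597 and 565 with both agents. The groups overlapped, and the difference with myoglobin was -0.13 (95% interval -0.28 to 0.01; limma adjusted p = 0.207). The mitophagy receptors Bnip3 and Bnip3l were 139 to 187 and 408 to 451 in vehicle and 163 to 195 and 426 to 479 with myoglobin, and neither passed. With both agents Bnip3 was 190 ± 34.8, a log2 difference of 0.22 from vehicle (limma adjusted p = 0.168), which passed without replicate 4 of that group (0.32, adjusted p = 0.0375).

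The remaining 4 HIF-responsive members with wide spread were the carbonic anhydrase Car9, the peptide hormone Adm, Ankrd37, whose function is poorly known, and Slc16a3, the lactate exporter MCT4. Slc16a3 was 58, 119, 202 and 56 in vehicle, 151, 180, 61 and 144 with myoglobin, and 198, 163, 31 and 44 with both agents. Ankrd37 was 23, 37, 49 and 15, then 39, 34, 15 and 24, then 38, 31, 10 and 2 in the same order. It overlaps Ufsp2 on the opposite strand, a gene with a mean of 330. The libraries within each group spanned at least 2.16-fold for each of the 4 genes, and no comparison passed. The pooled within-group SD was 1.12 on the log2 scale for Ankrd37, 1.00 for Slc16a3, 0.73 for Car9 and 0.55 for Adm. These exceed the SD of 99.9%, 99.9%, 99.4% and 96.9% of genes with a mean within a factor of 1.5. Replicates 3 and 4 were the lower 2 libraries with both agents for all 4 genes. In vehicle, replicate 1 was the lowest library for Car9 and Adm and replicate 4 for Slc16a3 and Ankrd37. The 95% interval for myoglobin against vehicle ran from -0.77 to 1.57 for Slc16a3 and from -1.01 to 0.78 for Car9, so changes of those sizes were not excluded for these genes.

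**Figure D3:**
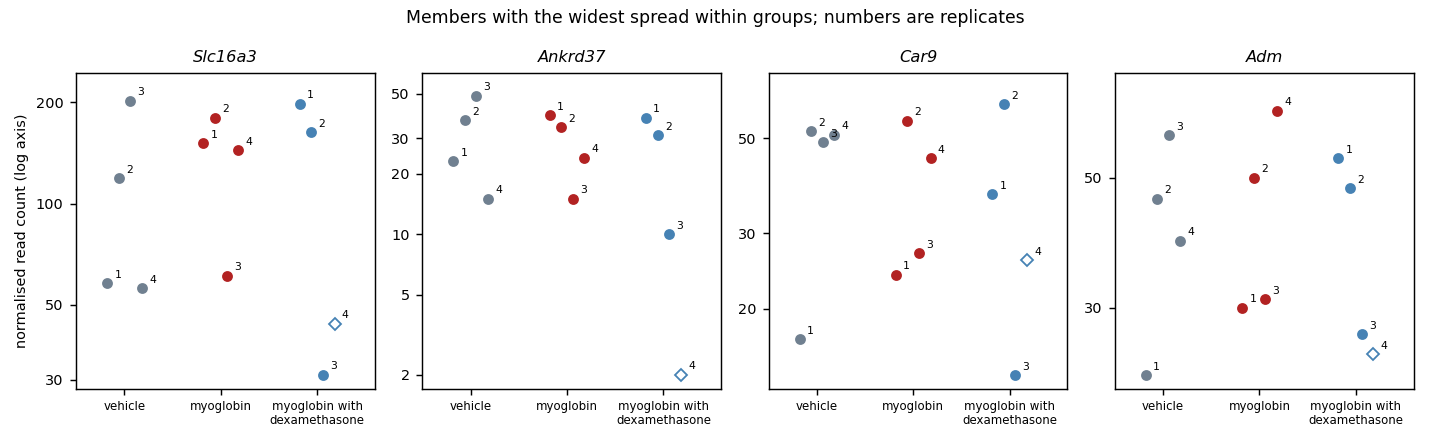
Normalised read count (log y axis) of Slc16a3, Ankrd37, Car9 and Adm in each library of the 3 treatment groups, with the replicate number beside each point and an open diamond for replicate 4 of myoglobin with dexamethasone. In the group with both agents, replicates 3 and 4 lie below replicates 1 and 2 in every panel, down to 2 for Ankrd37.

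Among genes of glucose entry, the carrier Slc2a1 (GLUT1) was 571, 585, 631 and 577 in vehicle, 671, 683, 681 and 690 with myoglobin, and 739, 709, 681 and 820 with both agents. The myoglobin libraries lay within 19 of each other and all above the vehicle libraries. Slc2a1 rose by 0.21 ± 0.052 with myoglobin (limma adjusted p = 0.0112) and by 0.32 ± 0.052 with both agents (adjusted p = 0.000346; 0.26 and 0.000151 without replicate 4). The difference of both agents from myoglobin was 0.11 (95% interval 0.00 to 0.22; adjusted p = 0.227), and 0.06 without replicate 4.

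Slc2a3 (GLUT3), a carrier of high glucose affinity, was scarce: 15, 21, 9 and 9 in vehicle, 17, 12, 14 and 10 with myoglobin, and 44, 40, 32 and 30 with both agents. Vehicle and myoglobin overlapped, and all 4 libraries with dexamethasone lay above the other 8. Slc2a3 rose by 1.40 ± 0.27 when dexamethasone was added to myoglobin, a 2.64-fold difference (limma adjusted p = 0.00494; 1.49 and 0.00458 without replicate 4). It was the largest rise with dexamethasone among the 37 rows. Per kb of exon its level with both agents was 5.04, against 210 for Slc2a1.

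Hexokinase takes the first step of glycolysis. Hk2, the inducible form, was 1958, 1780, 1888 and 1874 in vehicle, 2430, 2423, 2492 and 2408 with myoglobin, and 2585, 2543, 2443 and 3194 with both agents. All treated libraries lay above all vehicle libraries. Hk2 rose by 0.38 ± 0.067 with myoglobin (limma adjusted p = 0.00078) and by 0.51 ± 0.067 with both agents (adjusted p = 4.07e-05; 0.43 without replicate 4). Dexamethasone added to myoglobin gave 0.13 (95% interval -0.01 to 0.28), and 0.05 without replicate 4.

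Hk1, the constitutive form, was 1304, 1281, 1377 and 1335 in vehicle, 1248, 1327, 1363 and 1375 with myoglobin, and 1483, 1426, 1445 and 1754 with both agents. Vehicle and myoglobin overlapped, with a difference of 0.00 (95% interval -0.12 to 0.13), and the libraries with dexamethasone lay above both. Hk1 rose with both agents against vehicle by 0.20 ± 0.059 (limma adjusted p = 0.019; 0.13 and 0.0121 without replicate 4 of both agents). That call was lost without vehicle replicate 2 (adjusted p = 0.0601). Against myoglobin the difference was 0.20 ± 0.059, just short of the threshold (adjusted p = 0.0574), and it was 0.13 with an adjusted p of 0.0374 without replicate 4 and passed without replicate 2 of that group (0.0457). Per kb of exon, vehicle libraries held 314 of Hk2 and 155 of Hk1.

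Gpi1, glucose-6-phosphate isomerase, was 1209, 1182, 1271 and 1185 in vehicle, 1251, 1322, 1257 and 1231 with myoglobin, and 1428, 1364, 1316 and 1580 with both agents. It rose with both agents against vehicle by 0.23 ± 0.052 (limma adjusted p = 0.00404; 0.18 and 0.00201 without replicate 4), with groups that did not overlap. That call held in 22 of 23 alternative settings, and centring among genes of like read density ended it (0.089, adjusted p = 0.0596). Against myoglobin the difference was 0.17, which did not pass (limma adjusted p = 0.0681). It was 0.11 without replicate 4 (adjusted p = 0.0668), and it passed without replicate 3 of both agents (0.0352).

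Of the phosphofructokinases, which commit glucose to glycolysis, the platelet form Pfkp passed and the other two did not. It was 367, 472, 445 and 439 in vehicle, 508, 612, 514 and 552 with myoglobin, and 571, 590, 534 and 454 with both agents. The vehicle and myoglobin groups did not overlap, and replicate 4 of both agents lay within the vehicle range. Pfkp rose by 0.34 ± 0.088 with myoglobin (limma adjusted p = 0.0119) and by 0.32 ± 0.088 with both agents (adjusted p = 0.0143; 0.40 without replicate 4). The liver form Pfkl was 743 ± 48.6 and 818 ± 68.0 and the muscle form Pfkm 443 ± 17.2 and 429 ± 29.4 in vehicle and myoglobin. Pfkp overlaps Pitrm1 on the opposite strand, a gene with a mean of 715, and Pfkm likewise overlaps Senp1, with a mean of 801. The strand setting of the counting was not given in the sources used here. Pfkfb3, which makes the activator of phosphofructokinase, was 934 ± 80.3, 875 ± 75.4 and 953 ± 72.2 in the 3 groups and did not pass.

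Aldolase splits the 6-carbon sugar. Aldoc was 577, 537, 569 and 527 in vehicle, 563, 504, 463 and 495 with myoglobin, and 654, 601, 554 and 654 with both agents. With dexamethasone 3 of 4 libraries lay above all myoglobin libraries, and replicate 3, at 554, lay below myoglobin replicate 1, at 563. Aldoc rose by 0.28 ± 0.064 when dexamethasone was added (limma adjusted p = 0.0148; 0.25 and 0.0247 without replicate 4). The call was lost without myoglobin replicate 3 (adjusted p = 0.0522). Against vehicle both agents gave 0.15 (95% interval 0.02 to 0.29; adjusted p = 0.083, and 0.0264 without replicate 3 of both agents).

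Aldoa, the main aldolase of muscle and many other tissues, was 916, 926, 982 and 919 in vehicle, 958, 1058, 1025 and 966 with myoglobin, and 1131, 1051, 983 and 1488 with both agents. It rose with both agents against vehicle by 0.30 ± 0.092 (limma adjusted p = 0.0255), and by 0.17 without replicate 4 (adjusted p = 0.0134). The lowest library with both agents, at 983, lay 1 above the highest vehicle library. The call was lost when vehicle replicate 1, 2 or 4 was left out (adjusted p = 0.0538, 0.0605 and 0.0561) and when values were centred among genes of like read density (0.0577). The second row with this symbol, on chr7:126800790-126809108 just upstream of the first, held 11 to 21 in all libraries and did not pass.

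Triose phosphate isomerase, Tpi1, was 640, 660, 683 and 671 in vehicle, 656, 700, 694 and 680 with myoglobin, and 789, 738, 654 and 918 with both agents. The groups overlapped. It rose with both agents against vehicle by 0.21 ± 0.073 (limma adjusted p = 0.0409), and by 0.13 without replicate 4, which ended the call (adjusted p = 0.0748). The call held in 7 of 23 alternative settings.

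In lower glycolysis, Gapdh, which oxidises glyceraldehyde 3-phosphate, was 340, 378, 358 and 392 in vehicle, 386, 443, 387 and 397 with myoglobin, and 428, 409, 372 and 544 with both agents. The groups overlapped, and the differences from vehicle were 0.14 with myoglobin (95% interval -0.06 to 0.33) and 0.24 with both agents (0.05 to 0.44; limma adjusted p = 0.0572). The latter was 0.13 without replicate 4 of both agents (adjusted p = 0.128) and passed without replicate 3 (0.016). Gapdh has 73 near-identical copies in the genome, of at least 95% identity over 300 bases, and its value depends on how shared reads were counted.

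Pgk1, phosphoglycerate kinase, was 179, 181, 190 and 194 in vehicle, 205, 198, 196 and 201 with myoglobin, and 230, 215, 189 and 252 with both agents. The myoglobin libraries lay just above the vehicle libraries, with a difference of 0.10 that did not pass (95% interval -0.06 to 0.27). Pgk1 rose with both agents against vehicle by 0.24 ± 0.075 (limma adjusted p = 0.0249). It lost the call without vehicle replicate 1 (adjusted p = 0.0597) or 2 (0.0664), or without replicate 1 of both agents (0.0598), and without replicate 4 it was 0.18 (0.058).

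Pkm, pyruvate kinase, was 1028, 1076, 1111 and 1074 in vehicle, 1107, 1180, 1178 and 1110 with myoglobin, and 1244, 1177, 1113 and 1608 with both agents. Vehicle and myoglobin overlapped, and the lowest library with both agents lay 2 above the highest vehicle library. It rose with both agents against vehicle by 0.25 ± 0.083 (limma adjusted p = 0.036; 0.13 and 0.0208 without replicate 4). The call was lost when any of the 4 vehicle libraries was left out (adjusted p = 0.0554 to 0.0819), without replicate 1 of both agents (0.051), and when centred by read density (0.0686). Pkm overlaps Gm49759 on the same strand, a gene model with a mean of 387, and the value of Pkm depends on how shared reads were counted.

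Ldha, the lactate dehydrogenase subunit that HIF induces, was 748, 740, 799 and 769 in vehicle, 760, 823, 825 and 810 with myoglobin, and 878, 844, 740 and 1091 with both agents. The groups overlapped. The difference was 0.07 with myoglobin (95% interval -0.10 to 0.25) and 0.20 with both agents (0.03 to 0.38; limma adjusted p = 0.0771). The latter was 0.10 without replicate 4 of both agents (adjusted p = 0.165) and 0.065 when centred by read density (0.334), and it passed without replicate 3 (0.0094). Ldhb, the other subunit, was 668 ± 11.2 in vehicle and 664 ± 22.5 with myoglobin. With both agents it was 778 ± 166, and 695 ± 24.4 without replicate 4. Per kb of exon in vehicle, Ldhb was at 425 and Ldha at 231. Pgam1 and Eno1 were 90.3 ± 5.91 and 423 ± 13.5 in vehicle, 93.3 ± 7.04 and 450 ± 20.9 with myoglobin, and neither passed.

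Adding dexamethasone to myoglobin raised 2 of the 37 rows, Slc2a3 and Aldoc, and lowered 0 by limma, with 7 higher and 1 lower at an unadjusted p below 0.05. The 2 risers are 5.41% of the rows, against 3.08% of all tested genes, and 3.90% of all genes were lower. The groups did not overlap in 2 rows with dexamethasone higher (Slc2a3 and Hk1) and in 0 with it lower, against 7.03% and 6.19% of all genes. Without replicate 4 of both agents Slc2a3, Aldoc and Hk1 passed, all higher, against 4.02% of all tested genes higher and 4.79% lower. The median log2 difference was 0.079 with replicate 4 and 0.042 without it, against 0.0063 and 0.0049 over all genes. With values centred among genes of like read density it was 0.025, against 0.0028 over all genes. Centred and without replicate 4 it was 0.015, against 0.0040. None of the 6 oxygen-sensing genes passed, and none of them had an unadjusted p below 0.05. None of the 10 HIF targets outside glycolysis passed, with P4ha2 the 1 gene below 0.05 unadjusted. Of the 13 rows of glucose entry and upper glycolysis 2 rose, and of the 8 of lower glycolysis 0 did, with Ldhb the 1 gene below 0.05 unadjusted.

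Against vehicle, both agents together raised 13 rows and lowered 1, Ndrg1. The 13 are 35.1% of the rows, against 13.9% of all tested genes, and 14.6% of all genes were lower. The groups did not overlap in 12 rows with both agents higher and in 1 with them lower, against 15.3% and 13.3% of all genes. The risers comprised 2 of 6 oxygen-sensing genes, 1 of 10 HIF targets outside glycolysis, 8 of 13 rows of glucose entry and upper glycolysis and 2 of 8 of lower glycolysis. The median of the 37 rows was 0.20, and 0.12 without replicate 4, against 0.0017 and 0.0015 over all genes. Without that library 12 rows were higher, against 14.7% of all tested genes: Tpi1 and Pgk1 lost the call and Bnip3 gained it. With values centred among genes of like read density the count was 9, against 1996 of 14551 genes. The median was then 0.094, against 0.0003 over all genes. Without vehicle replicate 2 the count was 8, against 1524 of 14472 genes. The comparisons share groups: both treated groups are set against the same vehicle libraries.

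**Figure D4:**
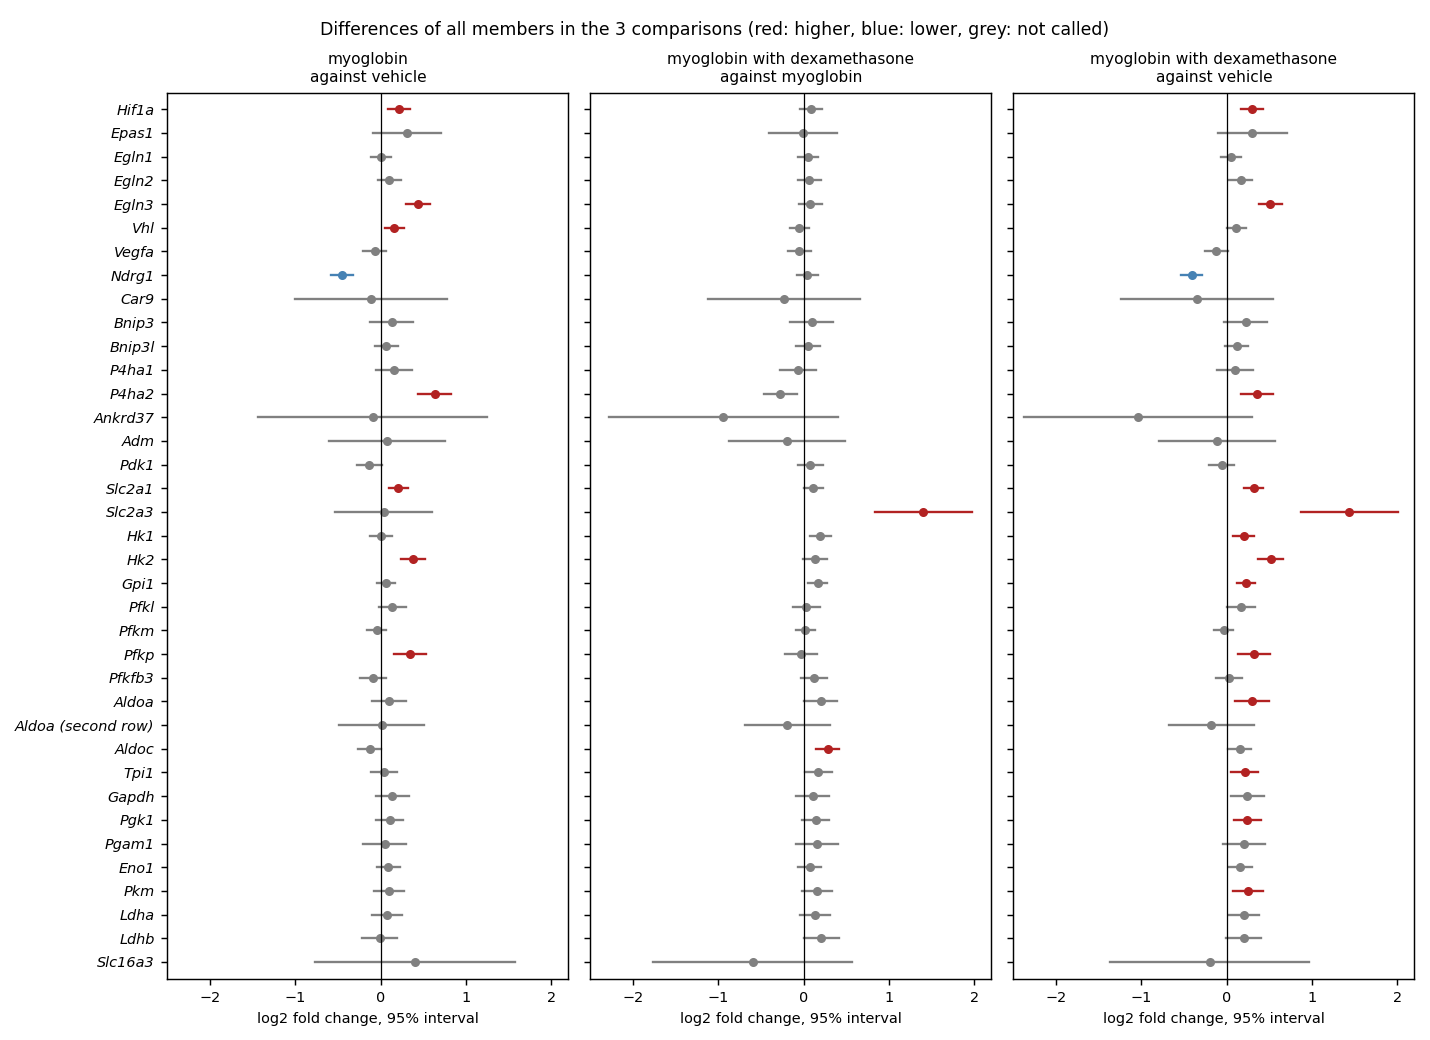
Log2 fold change with its 95% interval (x axis) for all 37 rows, ordered by role from oxygen sensing at the top to lactate at the bottom, in the 3 comparisons of 4 against 4 libraries; red and blue mark genes called higher and lower by limma. The called genes other than Slc2a3 lie within 0.65 of 0, Slc2a3 lies near 1.40 in the panels with dexamethasone, and the intervals of Car9, Ankrd37, Adm and Slc16a3 are the widest.

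Ratios between related genes within a library do not depend on the scaling between libraries. They do not remove differences tied to read density: in replicate 4 of both agents Slc2a1 deviated by 0.21 and Slc2a3 by -0.34. The ratios with both agents include that library. Of 11 such ratios in 3 comparisons, 8 of 33 exact two-sided permutation tests reached the smallest p that 4 against 4 libraries allow, 0.0286, and 0 passed after adjustment (smallest adjusted p = 0.118). For any to pass, most of the 33 tests would have had to reach that smallest p, so no conclusion is drawn from the 0. With myoglobin the log2 ratio of Hk2 to Hk1 went from 0.50 ± 0.058 (SD, n = 4) to 0.88 ± 0.063, that of Egln3 to Egln1 from -0.02 to 0.42, and that of P4ha2 to P4ha1 from -0.67 to -0.20. In each of these 3 the vehicle and myoglobin libraries did not overlap. Adding dexamethasone took the ratio of Slc2a1 to Slc2a3 from 5.60 to 4.31. The ratio of Ldha to Ldhb was 0.19 ± 0.061 in vehicle, 0.28 ± 0.053 with myoglobin and 0.20 ± 0.11 with both agents, with overlapping libraries.

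Other genes of the same pathways were examined from 4 further lists. Of 38 other hypoxia-response genes tested, 7 rose (18.4%, against 8.71% of all tested genes) and 5 fell (13.2%, against 9.62%) with myoglobin. Among them, Wsb1, a ubiquitin ligase subunit, fell from 927 ± 55.3 to 736 ± 22.7, and Loxl2, a collagen cross-linking enzyme, rose from 50 ± 12.5 to 90.0 ± 12.2. Adding dexamethasone raised 2 and lowered 0 of these genes by limma, with 6 higher and 4 lower at an unadjusted p below 0.05, and without replicate 4 the counts were 2 and 1. Of all tested genes 3.08% were higher and 3.90% lower in this comparison, and 4.02% and 4.79% without replicate 4. The 2 were Hif3a, an inhibitory HIF alpha subunit, at 38, 29, 22 and 29 with myoglobin and 93, 109, 99 and 55 with both agents (log2 difference 1.54 ± 0.26, limma adjusted p = 0.00193; 0.000389 without replicate 4), and Bhlhe41, a transcriptional repressor, which rose from 150 ± 13.0 to 226 ± 9.22. With both agents against vehicle 8 rose and 4 fell (21.1% and 10.5%, against 13.9% and 14.6% of all tested genes). Without replicate 4 the counts were 9 and 5, against 14.7% and 14.4% of all tested genes.

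Of 26 other glycolysis genes tested, 5 rose and 7 fell with myoglobin (19.2% and 26.9%, against 8.71% and 9.62% of all tested genes). Hkdc1, a hexokinase-related gene, fell from 354 ± 23.6 to 181 ± 20.6. Ldhd, which oxidises D-lactate, was 343, 359, 370 and 354 in vehicle, 268, 263, 255 and 239 with myoglobin and 552, 539, 504 and 566 with both agents. The 3 groups did not overlap. Ldhd fell by 0.48 on the log2 scale with myoglobin (limma adjusted p = 6e-06) and rose by 1.07 when dexamethasone was added. Adding dexamethasone raised 4 of the 26 and lowered 0 by limma, with 9 higher and 1 lower at an unadjusted p below 0.05. The 4 are 15.4% of the list, against 3.08% of all tested genes higher and 3.90% lower. The urate and sugar carrier Slc2a9 was among them (93.5 ± 9.57 to 150 ± 9.04). Without replicate 4 the counts were 5 and 1, against 4.02% and 4.79% of all tested genes. With both agents against vehicle 8 rose and 5 fell (30.8% and 19.2%, against 13.9% and 14.6% of all tested genes). Without replicate 4 the counts were 7 and 4, against 14.7% and 14.4% of all tested genes.

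**Figure D5:**
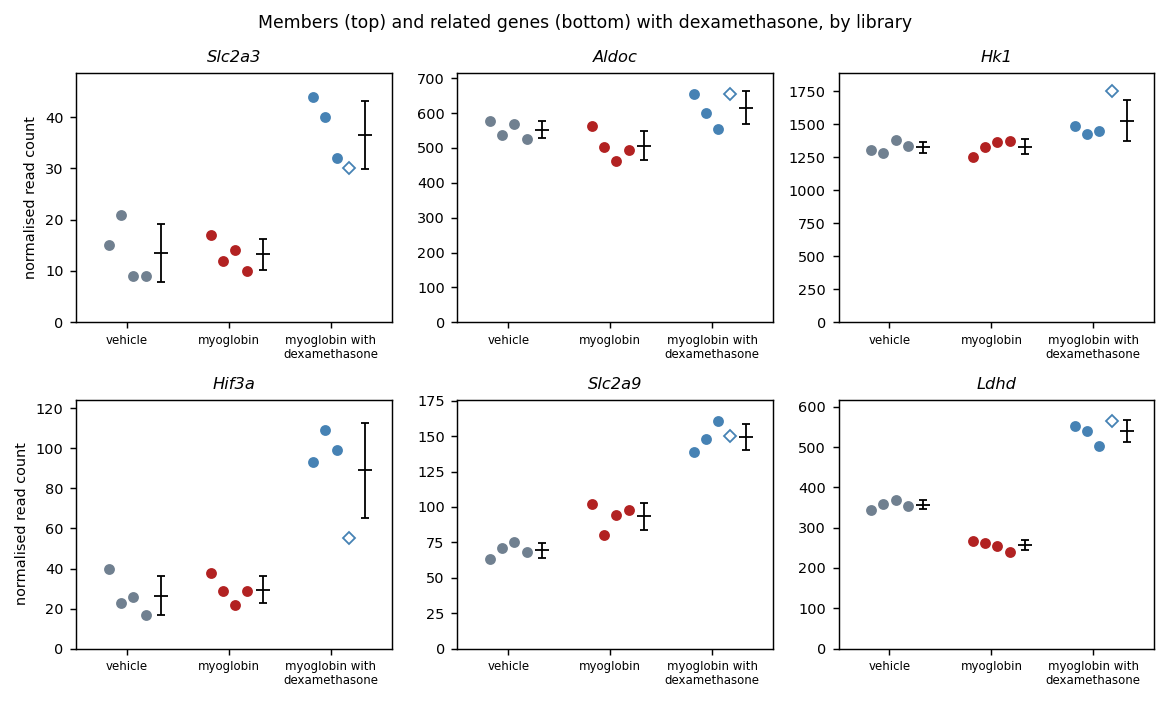
Normalised read count (y axis, from 0) in each library of the 3 treatment groups for the members Slc2a3, Aldoc and Hk1 (top) and the related genes Hif3a, Slc2a9 and Ldhd (bottom); bars are mean ± SD of 4 libraries and the open diamond is replicate 4 of myoglobin with dexamethasone. Slc2a3, Hif3a, Slc2a9 and Ldhd are highest with both agents, and Ldhd is lowest with myoglobin.

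Of 12 genes of pyruvate entry into the mitochondrion, 2 rose and 1 fell with myoglobin (16.7% and 8.33%, against 8.71% and 9.62% of all tested genes). When replicate 4 of both agents was left out of the fit, 5 rose and 1 fell, against 13.3% and 12.8% of all tested genes. Mpc1, a subunit of the mitochondrial pyruvate carrier, rose from 76.3 ± 8.42 to 97.3 ± 8.54, and Pdp2, a phosphatase that activates pyruvate dehydrogenase, rose from 545 ± 7.94 to 639 ± 30.2. Pdk2, a kinase that inactivates it, fell from 411 ± 18.4 to 318 ± 24.4 and rose to 388 ± 15.6 when dexamethasone was added. Pdp1, the related phosphatase, fell from 136 ± 11.1 to 104 ± 13.2 with dexamethasone. Thus 1 gene of this list rose and 1 fell in that comparison (8.33% each, against 3.08% and 3.90% of all tested genes). Without replicate 4 the counts were 2 and 1, against 4.02% and 4.79% of all tested genes. With both agents against vehicle 5 rose and 1 fell (41.7% and 8.33%, against 13.9% and 14.6%). The counts were the same without replicate 4, against 14.7% and 14.4% of all tested genes.

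The pentose phosphate pathway draws on glucose 6-phosphate to make NADPH and ribose. Of its 9 genes, 4 rose and 0 fell with myoglobin by limma, with 4 higher and 0 lower at an unadjusted p below 0.05. The risers are 44.4% of the list, against 8.71% of all tested genes, and 9.62% of all genes were lower. Pgd, the second NADPH-producing enzyme, was 929, 905, 999 and 1008 in vehicle and 1281, 1281, 1412 and 1307 with myoglobin (0.46 ± 0.069, limma adjusted p = 0.000191). G6pdx, the first, rose from 776 ± 24.7 to 1009 ± 48.3 and Rpia, which makes ribose 5-phosphate, from 199 ± 25.4 to 251 ± 11.5. Adding dexamethasone changed 0 of the 9 by limma, with 2 higher and 1 lower at an unadjusted p below 0.05; Prps1, the gene with the smallest p, was 221 ± 9.78 and 194 ± 7.19 (adjusted p = 0.06). Without replicate 4 the counts were also 0, with 0 higher and 1 lower unadjusted. In this comparison 3.08% of all tested genes were higher and 3.90% lower with that library, and 4.02% and 4.79% without it. With both agents against vehicle 5 rose (55.6%, against 13.9% of all tested genes) and 0 fell (against 14.6%), with 6 higher and 1 lower at an unadjusted p below 0.05. The counts called were the same without replicate 4, against 14.7% and 14.4% of all tested genes.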

How the data were processed

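Whole-number values per gene from 12 messenger RNA libraries were analysed. They were made by the authors with STAR 2.7.10a, featureCounts 2.0.3, DESeq2 1.36.0, Trimmomatic 0.39 and Picard 2.27.4 on build mm10, which the submitters' processing notes list but assign no role. The deposited values are a normalised score and not counts: the number of reads scaled by a library's size factor and rounded, as the steps between values show. Coordinates are those of the table. Reads in genes were estimated as 3.25 to 5.93 M per library.

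Limma-trend (limma 3.58.1, R 4.3.3) was fitted to log2(value + 1) over the 14558 genes that reached 10 in 4 or more libraries, with the 3 groups as terms. Two-sided p-values were adjusted by Benjamini and Hochberg across all genes tested, separately for each comparison, with a threshold of 0.05. "Rose" and "fell" stand only for changes past it. Fold changes are on the log2(value + 1) scale, which understates those of low genes. The method was tested on simulated data. Exonic lengths came from GENCODE M21, promoters from RefSeq and copies from a minimap2 alignment. Python 3.11.15 was used for tables and plots.

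The members and lists were chosen with earlier results of these data known. Values in every library are given for members that passed in any comparison and for Gapdh, Hif1a, Epas1, Vegfa, Slc2a1, Ldha and Pdk1, and for some others whose values were seen first. From the other lists, up to 3 genes that passed with the smallest p were named in each of the first 2 comparisons, and some that this rule picks are not reported here. Alternatives covered the pseudocount, the filter, scaling, library weights, a replicate block and leaving out each library.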

Additional observations from a re-analysis of the deposited data

Results flagged for a closer look

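In groups of 4 libraries, the gap between the highest or lowest library and its nearest neighbour was set against the whole range of the group for each of the 111 combinations of member row and group. Chance would flag about 1 in 20, and 7 were flagged. Replicate 4 of myoglobin with dexamethasone stood high for Egln2 (545 against 428 to 443, gap 0.872 of the range) and for Ldhb (1024 against 677 to 723, gap 0.867). Myoglobin replicate 4 stood low for Egln3 (631 against 692 to 696, gap 0.938), and myoglobin replicate 3 stood low for Pfkl (717 against 840 to 863, gap 0.842). Vehicle replicate 1 stood low for Car9 (17 against 49 to 52, gap 0.914). Vehicle replicate 3 stood high for Aldoa (982 against 916 to 926, gap 0.848) and for Pgam1 (99 against 86 to 88, gap 0.846).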

How the results depend on the processing

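With myoglobin against vehicle, the counts of members higher and lower (7 and 1) stayed within 1.5 times under all 23 alternatives, at 5 to 8 higher and 1 lower. The background of all genes called higher moved more, so the members' excess over it was not equally stable. It was 1268 of 14558 genes in the main fit and 2143 of 14558 with library weights, where 7 members were higher. Without replicate 4 of both agents it was 1926 of 14510, with 8 members higher. With no filter it was 1205 of 20813, with 6 members higher. For dexamethasone added to myoglobin, the 2 members higher became 4 with upper-quartile scaling (Gpi1 and Hk1 added). They became 1 to 4 when a library was left out, and the 0 lower became 0 to 1 (P4ha2). Over all genes, those higher were 448 in the main fit, 519 with upper-quartile scaling and 253 to 584 when a library was left out. For both agents against vehicle, the 13 higher became 8 to 18 when a library was left out. Of all tested genes 1524 to 2137 were higher in these fits and 2029 in the main fit. The 1 lower became 2 (Vegfa added) with quantile normalization and centring by read density, and 1 to 2 when a library was left out. Centring by read density, alone and without replicate 4 of both agents, was chosen after seeing the data. No direction that had passed reversed. Over all genes, the split of calls for both agents against vehicle moved from 2029 higher and 2132 lower to 1565 and 2648 with scaling to library totals, under which 11 members were higher. The genes called for dexamethasone, 1016 in all, were 1625 with library weights, 639 with only the 2 groups compared, 616 without myoglobin replicate 2 and 549 without myoglobin replicate 4. Library weights gave 4314 genes in place of 2669 for myoglobin against vehicle. The cause was not tested.

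Same-numbered libraries correlated at -0.02 to 0.46 in their deviations from group means, and 10 of 12 correlated best with their own number, a hint from the data and not the design. With a replicate block, 8 members were higher with myoglobin, Epas1 being added (adjusted p = 0.0257; 0.0212 with both agents against vehicle). Over all genes 1624 of 14558 were higher with myoglobin. When dexamethasone was added 4 members were higher (Hk1 and Pfkfb3 added) and 1 lower (P4ha2), against 749 and 1039 of 14558 genes. In all, 1788 genes passed in that comparison. With both agents against vehicle 18 members were higher, against 2582 of 14558 genes. Depth limits the scarce members: Slc2a3, Ankrd37 and the second Aldoa row had values of 2 to 49 per library.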
